A study of Mus musculus with 12 samples.

Results

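The circadian clock genes described here are the 10 genes Arntl, Clock, Per1, Per2, Per3, Cry1, Cry2, Nr1d1, Nr1d2 and Dbp, chosen by symbol from the 23660 genes of the deposited FPKM table, with their counts taken by the same gene identifier. All 10 were found once each, and all 10 passed the filter on low counts. The deposited tables carry rat-type Ensembl identifiers under a mouse label, and the files do not say from which species the reads came. The samples were 12 libraries of ventricle RNA from wild-type male C57BL/6J mice aged 6 to 8 weeks, per the labels, with 3 libraries in each of 4 groups. Sham is the control group, although the protocol text describes the operation without saying how the Sham animals differed. MI (myocardial infarction) had the left anterior descending coronary artery permanently tied off and no compound. Fer-1+MI had the same ligation plus Fer-1 (ferrostatin-1, daily dose 1 mg per kg). Lip-1+MI had it plus Lip-1 (liproxstatin-1, daily dose 3 mg per kg). Both compounds, known as inhibitors of lipid peroxidation in ferroptosis, were given from 24 h ahead of the ligation. No vehicle is named for the Sham and MI groups, and no group received a compound without ligation.

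The animals lived under 12 h of light and 12 h of dark. The hour of day at which tissue was taken, and the time from ligation to collection, are not stated in the labels. Clock transcripts change with the hour, so a difference between groups cannot be told apart from a difference in the hour of collection if groups were collected at different hours. The labels do not state that the 3 libraries of a group are 3 animals, so p-values measure the spread between these libraries, which may be technical.

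The mammalian clock is a feedback loop of transcription. The proteins of Arntl (also called Bmal1) and Clock pair to switch on genes that carry an E-box, including the Per and Cry genes, whose proteins then repress that pair. In a second loop the repressors made from Nr1d1 and Nr1d2 (REV-ERB alpha and beta) and the activators of the ROR family act in opposite directions on Arntl, and Dbp carries the rhythm to output genes through D-boxes. Cardiomyocytes have their own clock, which times part of the metabolism and electrical activity of the heart. Per1 also responds to glucocorticoids and to cAMP, apart from its rhythm.

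Short stretches of the mouse genes show the elements on which this loop is built. They are from RefSeq on GRCm38.p6, a mouse build, whereas the rat-type identifiers of the deposited tables have the prefix ENSRNOG and their build is not stated in the labels. A promoter window (250 bases before to 50 after a start) was matched by symbol for 9 of the 10 genes, the exception being Per2. Capitals mark the motif found by search on both strands. The first is a piece of the second Arntl window at chr7:113207530-113207559 on the plus strand, with a ROR element (TAGGTCA) that begins 31 bases after the start, shown because both ROR activators and REV-ERB repressors bind this element. The others are the 250 bases before the start of Per1 at chr11:69098699-69098948 (plus strand, E-box CACGTG), of Nr1d1 at chr11:98775378-98775627 (minus strand, the E-box variant CACGTT, read here as AACGTG on the other strand), of Cry1 at chr10:85185055-85185304 (minus strand, one of each) and of Per3 at chr4:151044666-151044915 (minus strand, D-box TTANGTAA, matched at 2 places).
Arntl: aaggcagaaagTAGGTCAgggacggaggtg
Per1: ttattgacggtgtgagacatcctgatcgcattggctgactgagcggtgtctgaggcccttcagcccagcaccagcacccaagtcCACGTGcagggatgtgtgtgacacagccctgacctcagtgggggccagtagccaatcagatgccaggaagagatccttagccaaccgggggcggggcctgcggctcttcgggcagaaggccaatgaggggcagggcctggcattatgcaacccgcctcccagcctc
Nr1d1: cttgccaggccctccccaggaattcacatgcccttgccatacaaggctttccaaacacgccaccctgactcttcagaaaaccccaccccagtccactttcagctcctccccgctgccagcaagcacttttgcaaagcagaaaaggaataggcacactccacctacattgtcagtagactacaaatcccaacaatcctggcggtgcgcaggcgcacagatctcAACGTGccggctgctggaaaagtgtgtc
Cry1: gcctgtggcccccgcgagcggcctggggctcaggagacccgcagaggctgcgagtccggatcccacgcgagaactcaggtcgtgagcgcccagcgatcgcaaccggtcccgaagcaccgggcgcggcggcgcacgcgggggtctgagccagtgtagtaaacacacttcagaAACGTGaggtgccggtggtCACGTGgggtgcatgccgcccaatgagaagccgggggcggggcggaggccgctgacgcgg
Per3: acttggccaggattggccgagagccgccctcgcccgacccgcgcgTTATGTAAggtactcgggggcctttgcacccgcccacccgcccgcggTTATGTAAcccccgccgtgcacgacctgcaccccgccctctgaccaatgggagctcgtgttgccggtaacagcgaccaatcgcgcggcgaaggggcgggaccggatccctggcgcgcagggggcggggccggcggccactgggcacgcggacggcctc

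Across the 13 windows of the 9 genes, the E-box was in 2, the variant in 3, the D-box in 1, the ROR element in 1 and the cAMP response element (TGACGTCA) in none. Among all 32851 RefSeq windows of the same length, the E-box was in 7.15%, the variant in 4.68%, the D-box in 2.32%, the ROR element in 2.61% and the cAMP response element in 1.79%. The Clock, Nr1d2 and Dbp windows held none of the 5. A match describes letters in a window, not a bound site, and a window with no match leaves distant elements unexamined. Per1 and Cry1, which both have the E-box in these windows, had log2 fold changes of -0.76 and 0.06 in MI against Sham.

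Library depth was 45.5 M counts in the smallest library and 60.8 M in the largest, and the lowest count of any clock gene in any library was 678. TMM scaling factors were 1.08 to 1.09 in the Sham libraries and 0.959 to 0.991 in the ligated ones. Values below are CPM (counts scaled to a common library size with those factors) unless FPKM is named, and FPKM alone is used to compare one gene with another because it is set per gene length. With library size in place of TMM, the median of all tested genes in MI against Sham shifted by -0.17 on the log2 scale, so changes are read against the median of all genes. Of the cardiomyocyte markers, Myh6 averaged 1573 FPKM, Tnnt2 2370 FPKM and Myh7 782 FPKM in Sham. By contrast Mb averaged 21.5 FPKM and Ckm 42.6 FPKM in Sham, while Nppa, an atrial and stress-induced peptide gene, averaged 4036 FPKM there. The fibroblast marker Col1a1 averaged 1621 FPKM in Sham and the smooth muscle marker Acta2 960 FPKM. The T-cell marker Cd3e was listed at 0 in every library. The sum over the 12 cardiomyocyte markers lay between 14666 and 17851 FPKM and its groups overlapped. In MI against Sham 3 of the 12 were higher and 3 lower, where 43.6% of all tested genes differed in the test described below. Nppa went from 3800 ± 180 to 5224 ± 301 CPM, Myh6 from 10065 ± 277 to 7449 ± 648 CPM and Pln from 803 ± 5.82 to 560 ± 71.1 CPM (SD, n = 3).

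Between MI and Sham, 3 of the 10 clock genes differed. Nr1d1, which encodes the repressor REV-ERB alpha, rose 1.84-fold in MI against Sham, and Arntl, the activator of the loop, rose 1.42-fold. Per1, the repressor gene that also answers to hormones and cAMP, fell to 0.592 of its Sham level. The other 7 did not pass the test. For these tests edgeR's quasi-likelihood test was run on all 16910 tested genes with Benjamini-Hochberg adjustment and a threshold of 0.05. In that comparison 43.6% of all tested genes were called, 22.8% higher and 20.8% lower (2414 higher and 5943 lower genes with library size in place of TMM, against 3860 and 3509). The clock genes, with 2 higher and 1 lower of 10, are therefore near or under the background as a set. The same 3 were those whose groups did not overlap, which held for 53.8% of all genes.

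Arntl measured 28.5, 28.4 and 26.5 CPM in Sham and 41.0, 40.7 and 36.5 CPM in MI. The Fer-1+MI libraries held 40.1, 41.0 and 37.8 CPM, those of Lip-1+MI 41.0, 47.9 and 44.2 CPM. All 9 ligated libraries lay above all 3 Sham libraries, where the share of all genes with no overlap against Sham was 47.5% in Fer-1+MI and 51.3% in Lip-1+MI. The log2 fold change in MI against Sham was 0.50 ± 0.07 (SE), with an adjusted p of 1.2e-05 in edgeR. Relative to Sham the log2 fold change was 0.51 with Fer-1 (adjusted p = 1.4e-05, edgeR) and 0.67 with Lip-1 (adjusted p = 4.3e-07, edgeR). These 3 comparisons share the Sham libraries and so are not separate evidence. Its partner gene Clock measured 81.4, 75.1 and 81.8 CPM in Sham and 81.8, 83.9 and 79.0 CPM in MI. Its log2 fold change was 0.04, with a 95% interval of -0.08 to 0.15, so a change as large as that of Arntl lies outside the interval.

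**Figure D1:**
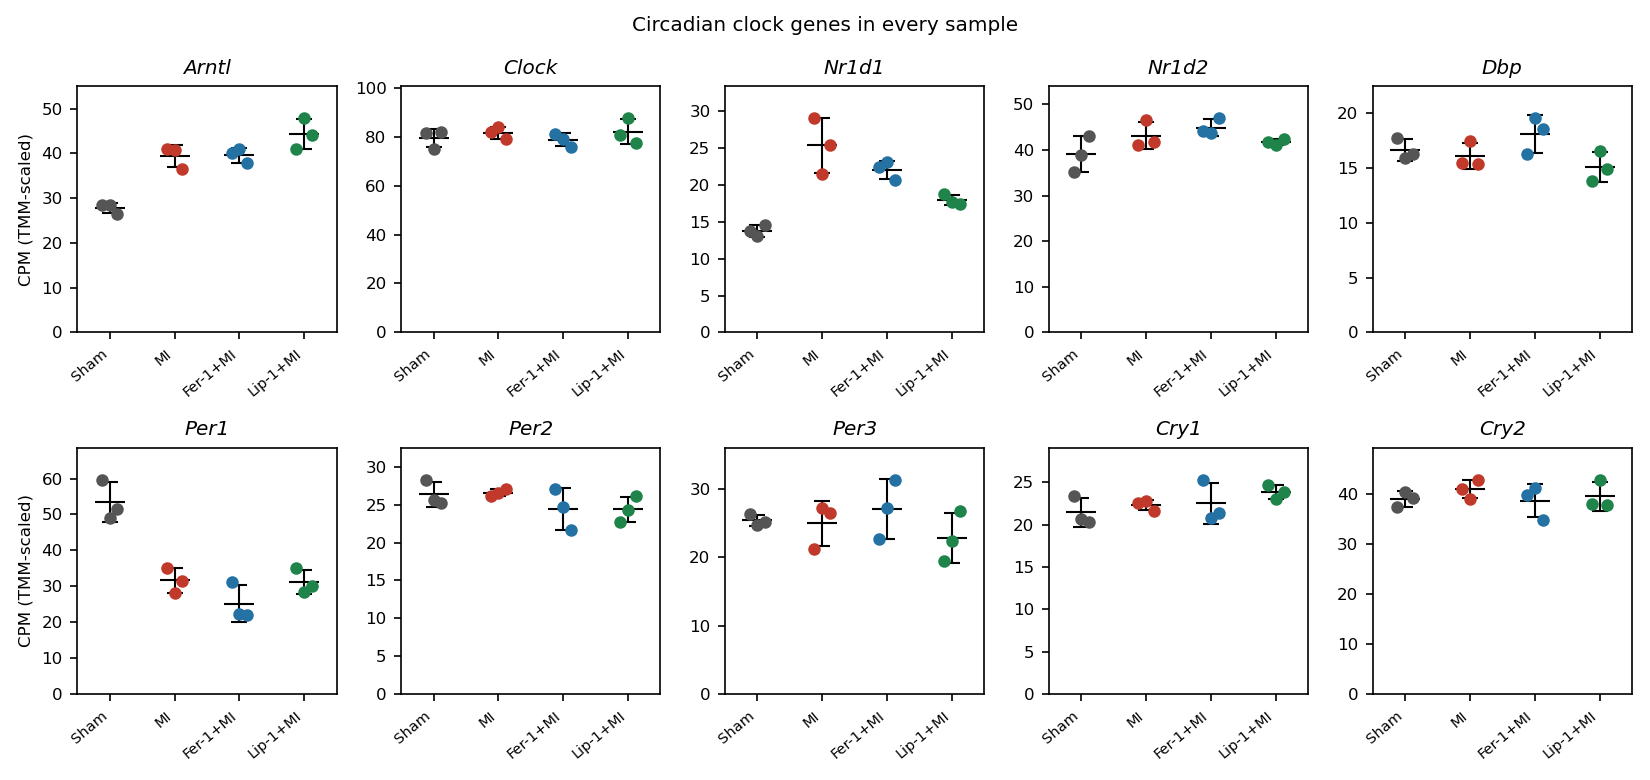
Each panel is 1 clock gene, with the 4 groups on the horizontal axis and TMM-scaled CPM on the vertical axis from 0; points are libraries, and the bar and whiskers are the mean and SD (n = 3). Arntl and Nr1d1 are higher and Per1 is lower in all 9 ligated libraries than in the 3 Sham libraries, while the Clock and Cry2 groups overlap.

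Nr1d1 gave the largest rise among the members. It measured 13.7, 13.0 and 14.5 CPM in Sham and 29.0, 21.5 and 25.4 CPM in MI, with no overlap. Its log2 fold change was 0.88 ± 0.10 (SE), with an adjusted p of 6.7e-07 in edgeR. Nr1d1 and Thra, the thyroid hormone receptor alpha gene, lie on opposite strands of chromosome 10 in the deposited coordinates and share 1059 bases, from 86683875 to 86684933. The labels do not state whether strand was used in counting, so reads from the shared stretch could fall to either gene. Thra measured 55.2 ± 3.67 CPM in Sham and 60.5 ± 2.62 CPM in MI (SD, n = 3). Its log2 fold change was 0.13, with an adjusted p of 0.0878 in edgeR, against 0.88 for Nr1d1. Nr1d2, which encodes the related repressor REV-ERB beta, measured 35.3, 39.0 and 43.1 CPM in Sham and 41.2, 46.5 and 41.7 CPM in MI, and these overlapped. Its log2 fold change was 0.14 (adjusted p = 0.127, edgeR), and it passed only without the third Sham library, at 0.21 (adjusted p = 0.0287, edgeR). The log2 ratio of Nr1d1 to Nr1d2 counts within a library, which does not depend on scaling, was -1.51 ± 0.12 in Sham and -0.78 ± 0.31 in MI (SD, n = 3).

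Per1 measured 59.7, 48.9 and 51.6 CPM in Sham and 35.2, 28.2 and 31.6 CPM in MI. The Fer-1+MI libraries held 31.2, 22.3 and 22.1 CPM, those of Lip-1+MI 35.0, 28.5 and 30.2 CPM. Every ligated library lay below every Sham library, and within each group the library numbered 1 was the highest. That order was not particular to Per1: Fos, Dusp1 and Zbtb16 were also highest in library 1 of every group, but Nr4a1 and Sik1 were not. The log2 fold change in MI against Sham was -0.76 ± 0.13 (SE), with an adjusted p of 3.7e-04 in edgeR. Against Sham it was -1.09 with Fer-1 (adjusted p = 2.2e-05, edgeR) and -0.77 with Lip-1 (adjusted p = 3.7e-04, edgeR). The other period genes did not follow it. Per2 measured 28.3, 25.6 and 25.2 CPM in Sham and 26.1, 26.6 and 27.0 CPM in MI, with a log2 fold change of 0.01 and a 95% interval of -0.16 to 0.19. Per3 measured 26.3, 24.7 and 25.1 CPM in Sham and 21.1, 27.2 and 26.4 CPM in MI, with an interval of -0.30 to 0.25. Neither interval reaches the change seen in Per1. The log2 ratio of Per1 to Per2 counts was 1.01 ± 0.08 in Sham and 0.25 ± 0.17 in MI (SD, n = 3), and the groups did not overlap.

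The cryptochrome genes, whose proteins repress the Arntl and Clock pair together with PER proteins, gave small differences. Cry1 measured 23.4, 20.6 and 20.3 CPM in Sham and 22.5, 22.8 and 21.6 CPM in MI, and its log2 fold change was 0.06 (95% interval -0.12 to 0.24). Cry2 measured 37.4, 40.4 and 39.3 CPM in Sham and 41.1, 39.1 and 42.8 CPM in MI, with 0.07 (interval -0.08 to 0.22). The groups overlapped for both. Dbp, an output activator that is among the most strongly cycling transcripts in many tissues, measured 17.7, 15.9 and 16.2 CPM in Sham and 15.4, 17.4 and 15.3 CPM in MI. Its log2 fold change was -0.05 (95% interval -0.25 to 0.15, adjusted p = 0.738, edgeR). The 7 genes that did not pass had log2 fold changes from -0.05 (Dbp) to 0.14 (Nr1d2).

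**Figure D2:**
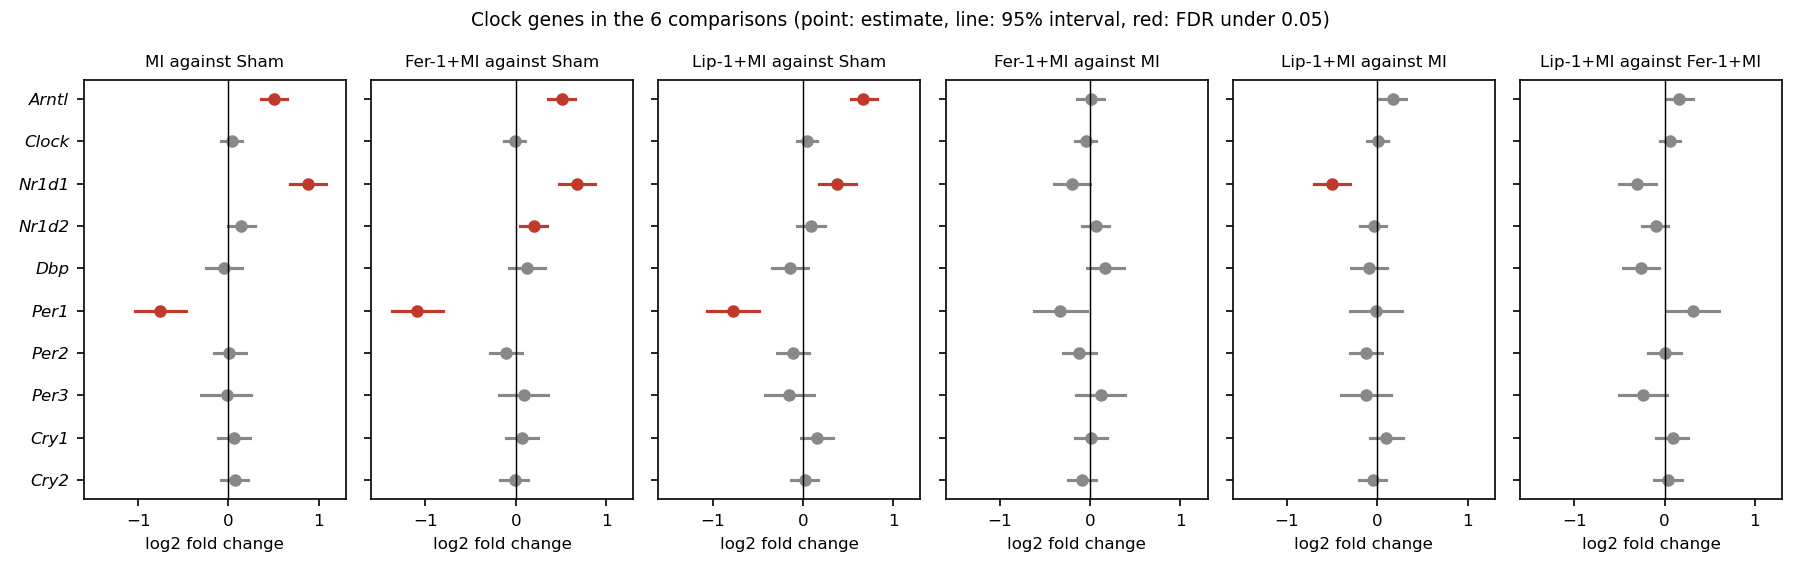
Points are log2 fold changes of the 10 clock genes in the 6 comparisons, lines are 95% intervals, and red marks an adjusted p under 0.05 in edgeR. Arntl, Nr1d1 and Per1 are red in all 3 comparisons with Sham, Nr1d2 is red in Fer-1+MI against Sham, and Nr1d1 alone is red between ligated groups, in Lip-1+MI against MI.

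Over all 4 groups in one F test, Arntl (adjusted p = 2.3e-06, edgeR), Nr1d1 (3.7e-06) and Per1 (6.6e-05) passed and the other 7 clock genes did not, where 44.3% of all tested genes passed. In Fer-1+MI against Sham 4 of the 10 passed, with 36.3% of all genes called, and the added one was Nr1d2 at 0.20 (adjusted p = 0.0361, edgeR). That Nr1d2 call held in 13 of 21 alternatives. For every call the 21 include leaving out each library in turn, also libraries of groups not compared. Those libraries enter only through the filter, the scaling and the shared spread, so such alternatives are a weak check. It was lost with library size in place of TMM, at 0.05 (adjusted p = 0.595, edgeR), and in all 3 FPKM settings, at 0.06 to 0.07. It was also lost with only the groups compared in the fit, at 0.20 (adjusted p = 0.0549, edgeR), and without the first Sham (0.13), the second Sham (0.20) or the third Fer-1+MI library (0.17). In Lip-1+MI against Sham 3 passed, with 38.8% of all genes called. There Nr1d1 had a log2 fold change of 0.38 (adjusted p = 0.00407, edgeR), which held in 17 of 21 alternatives. It fell short with library size in place of TMM at 0.21 (adjusted p = 0.0793, edgeR) and in the 3 FPKM settings at 0.20 to 0.24 (adjusted p from 0.0535 to 0.0719, limma). With library size 1 clock gene was higher and 3 were lower, in place of 2 and 1. In Fer-1+MI it gave 2 higher and 3 lower, in place of 3 and 1.

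Levels per gene length put the members in a different order before and after ligation. In Sham, Per1 stood first at 12.4 FPKM, with libraries from 11.3 to 13.8, above Cry2 at 9.25, Dbp at 9.15, Arntl at 8.81, Nr1d2 at 8.00, Clock at 7.94 and Cry1 at 6.90 FPKM. Each neighbour from Cry2 down to Cry1 overlapped the next, and Nr1d1 (5.07 FPKM), Per2 (4.29) and Per3 (3.68) followed without overlap. In MI, Arntl stood first at 11.2 FPKM, with libraries from 10.4 to 11.8, and overlapped none of the others. Nr1d1 had moved up to 8.39 FPKM and Per1 down to 6.61 FPKM, both among a run from Cry2 (8.75) to Cry1 (6.46) in which each neighbour overlapped the next. Per2 and Per3 stayed lowest, at 3.90 and 3.25 FPKM. Arntl also stood first with Fer-1 at 11.5 FPKM and with Lip-1 at 12.7 FPKM, without overlap with the second gene.

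**Figure D3:**
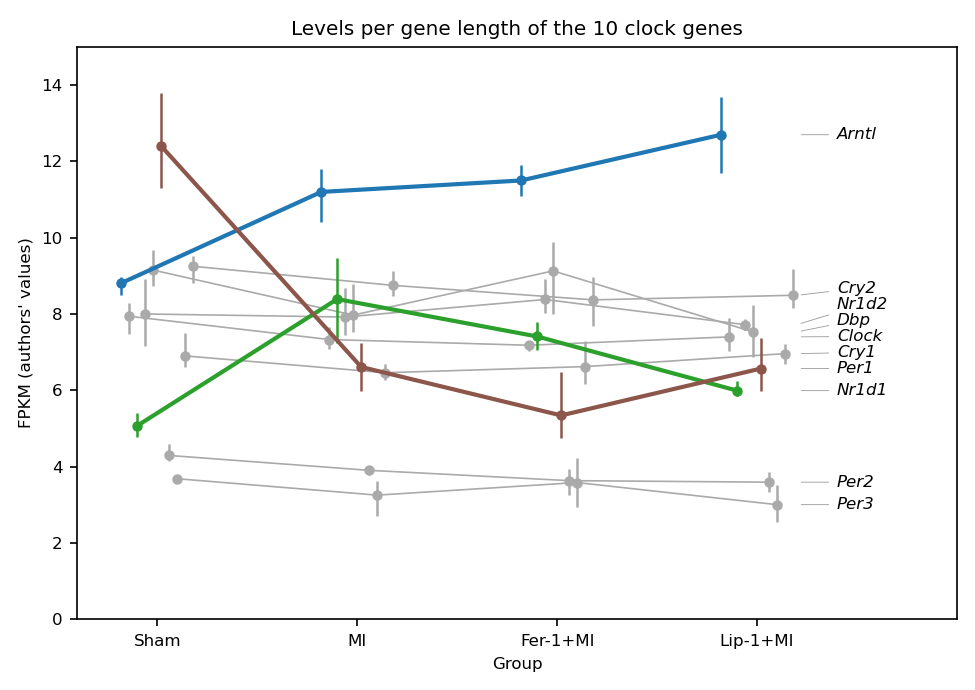
Mean FPKM of each clock gene (vertical axis) by group (horizontal axis), with lines from the lowest to the highest library (n = 3); coloured lines are Arntl, Per1 and Nr1d1 and grey lines are the other 7. Per1 is highest in Sham at 12.4 FPKM and Arntl is highest in the 3 ligated groups, at 11.2 to 12.7 FPKM.

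The balance of Arntl to Per1 within each library needs no scaling between libraries. These are the same counts as above, so a shift is not separate evidence from the calls of Arntl and Per1. The log2 ratio of their counts was -1.07, -0.78 and -0.96 in Sham and 0.22, 0.53 and 0.21 in MI. With Fer-1 it was 0.36, 0.88 and 0.77, and with Lip-1 it was 0.23, 0.75 and 0.55. Per1 thus had more counts than Arntl in every Sham library and fewer in every ligated library. Those ratios are of counts, not of levels per length.

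With group as the only term in the fit, 1 clock gene passed between ligated groups, namely Nr1d1 in Lip-1+MI against MI. Fer-1+MI against MI called 0 of the 10 in edgeR, where 5.36% of all tested genes were called, 0 in DESeq2, and 2 at an unadjusted p under 0.05. No clock gene had groups without overlap there, against 21.0% of all genes. The 2 were Per1, with a log2 fold change of -0.33 ± 0.13 (SE, adjusted p = 0.200, edgeR), and Nr1d1, with -0.20 (adjusted p = 0.270, edgeR). Per1 passed with the library number as a further term (replicate block), at -0.34 (adjusted p = 0.00503, edgeR). It also passed without the first Fer-1+MI library, at -0.51 (adjusted p = 0.00741, edgeR), so its result here depends on the fit. That library held 31.2 CPM, against 22.3 and 22.1 in the other two.

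Lip-1+MI against MI called 1 of the 10, where 6.10% of all genes were called and 3.05% as lower. Nr1d1 fell from 29.0, 21.5 and 25.4 CPM in MI to 18.7, 17.6 and 17.4 CPM in Lip-1+MI, with no overlap. The log2 fold change was -0.50 ± 0.10 (SE), a fall to 0.709 of the MI level, with an adjusted p of 0.00358 in edgeR. This call held in all 21 alternatives, with log2 fold changes from -0.60 to -0.39. Lip-1+MI libraries still lay above the Sham libraries, at 17.4 CPM or more against 14.5 or less. Thra, which shares bases with Nr1d1, had a log2 fold change of -0.00 in the same comparison (adjusted p = 0.993, edgeR). Arntl was higher in Lip-1+MI without overlap, at 0.17 (adjusted p = 0.178, edgeR), and Cry1 likewise at 0.10 (adjusted p = 0.592, edgeR), neither past the threshold. Groups did not overlap in 3 of 10 clock genes and in 23.6% of all genes.

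The log2 ratio of Arntl to Nr1d1 counts was 1.02 ± 0.13 in Sham, 0.65 ± 0.24 in MI, 0.85 ± 0.02 with Fer-1 and 1.31 ± 0.16 with Lip-1 (SD, n = 3). In Lip-1+MI it was 1.13, 1.44 and 1.34, above the 0.50, 0.92 and 0.52 of MI. Between the compounds the doses differ, so Lip-1+MI and Fer-1+MI are set side by side only. Nr1d1 measured 22.4, 23.0 and 20.6 CPM with Fer-1 and 18.7, 17.6 and 17.4 CPM with Lip-1, which did not overlap. The log2 difference of -0.30 had a 95% interval of -0.50 to -0.09 and an adjusted p of 0.121 in edgeR. Dbp measured 16.2, 19.5 and 18.5 CPM with Fer-1 and 13.8, 16.5 and 14.9 CPM with Lip-1, and these overlapped. Groups did not overlap in 3 of the 10 clock genes (Arntl, Nr1d1 and Nr1d2), against 18.8% of all genes. With group as the only term, no clock gene passed between the compound groups in edgeR, where 3.15% of all genes did, none passed in DESeq2, and 4 had an unadjusted p under 0.05, namely Nr1d1, Dbp, Arntl and Per1. Per1 passed with the replicate block, at 0.32 (adjusted p = 0.0103, edgeR), and without the first Fer-1+MI library, at 0.49 (adjusted p = 0.0131, edgeR). Both comparisons with MI share the MI libraries.

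Further genes of the loop were counted as a list of 10, all tested. In MI against Sham 5 rose and 1 fell, where 22.8% of all tested genes were called higher and 20.8% lower. The median log2 fold change of the list was 0.49, against -0.00 over all genes. Bhlhe40, whose protein DEC1 competes for E-boxes, rose from 145 ± 5.52 CPM to 355 ± 8.61 CPM (SD, n = 3), a log2 fold change of 1.29 ± 0.04 (SE, adjusted p = 1.0e-13, edgeR). Its relative Bhlhe41 rose 1.81-fold. Ciart, a repressor of the Arntl and Clock pair, rose from 3.06 ± 0.491 to 9.21 ± 0.155 CPM, and Nfil3, which represses through D-boxes where Dbp activates, rose from 25.8 ± 1.25 to 47.7 ± 3.23 CPM. Rora, the ROR activator of Arntl, rose from 2.10, 3.23 and 3.33 CPM in Sham to 11.1, 7.71 and 9.68 CPM in MI. In contrast Tef, a D-box activator of the family of Dbp, fell from 47.5 ± 1.18 to 33.2 ± 3.68 CPM, a log2 fold change of -0.51 (adjusted p = 4.2e-05, edgeR).

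These 6 genes kept their calls against Sham in both compound groups, where 36.3% (Fer-1) and 38.8% (Lip-1) of all tested genes were called. For Rora the log2 fold change was 1.61 with Fer-1 and 1.68 with Lip-1, and for Ciart it was 1.60 and 1.32. None of the 6 passed in either compound group against MI, where 5.36% (Fer-1) and 6.10% (Lip-1) of all tested genes were called. Timeless, another gene of the list, was called lower in Lip-1+MI (14.1 ± 0.443 CPM) than in MI (17.8 ± 1.40 CPM, SD, n = 3). That call was lost in several alternatives, such as without the first MI library, at -0.28 (adjusted p = 0.186, edgeR).

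**Figure D4:**
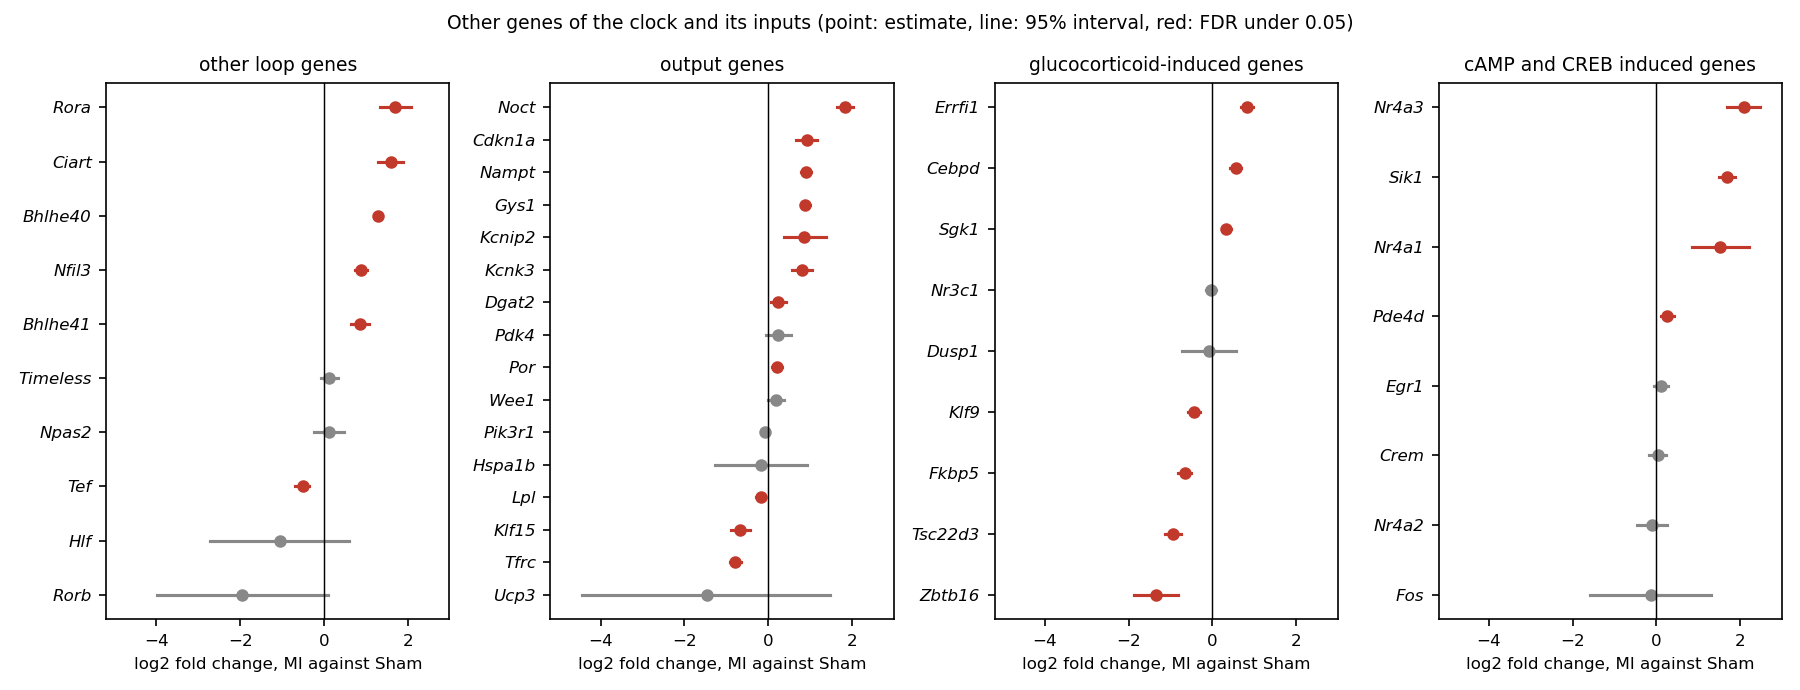
Log2 fold changes in MI against Sham (horizontal axis) of 4 lists of clock-related genes, with 95% intervals; red marks an adjusted p under 0.05 in edgeR. Of the other loop genes Rora, Ciart, Bhlhe40, Nfil3 and Bhlhe41 are right of 0 and Tef is left of 0. Among the glucocorticoid-induced genes (drawn without Per1) Zbtb16, Tsc22d3, Fkbp5 and Klf9 are left of 0, while Errfi1, Cebpd and Sgk1 are right of 0.

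Genes for enzymes that modify or degrade clock proteins made a list of 15, of which 14 were tested. In MI against Sham 6 rose and 2 fell, where 22.8% of all tested genes were called higher and 20.8% lower. With library size in place of TMM 4 rose and 5 fell, so the direction of this list rests on the scaling. The kinase genes Csnk1d and Csnk1e, whose products phosphorylate PER proteins, had log2 fold changes of 0.28 and 0.41, and Usp2, a deubiquitinase gene, fell from 16.0 ± 0.778 to 11.1 ± 0.582 CPM (SD, n = 3). Of 17 output genes with a known daily rhythm in the heart, 16 were tested. Of these 8 rose and 3 fell (6 and 4 with library size in place of TMM), against the same shares of all tested genes. Noct, a rhythmic gene for a NADP(H) phosphatase, rose from 10.9 ± 1.06 to 38.9 ± 4.57 CPM, and Nampt, for an enzyme of NAD synthesis, from 93.3 ± 6.14 to 175 ± 8.05 CPM. Klf15, a regulator of heart metabolism, fell from 27.9 ± 2.03 to 17.7 ± 2.80 CPM.

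Of the 16 tested output genes, 3 were called higher and 0 lower in Fer-1+MI against MI, where 5.36% of all tested genes were called. In Lip-1+MI against MI 1 was higher and 1 lower, where 6.10% of all tested genes were called. Pdk4, which restrains glucose oxidation, had opposite differences from MI with the 2 compounds, whose doses differ. It measured 14.7, 13.3 and 14.9 CPM in Sham and 19.7, 14.9 and 16.2 CPM in MI, which overlapped. It was 23.1, 27.3 and 24.6 CPM with Fer-1 and 7.15, 7.43 and 11.1 CPM with Lip-1, above and below all MI libraries. Groups did not overlap with MI in 21.0% (Fer-1) and 23.6% (Lip-1) of all tested genes. Against MI the log2 fold change of Pdk4 was 0.57 with Fer-1 (adjusted p = 0.0251, edgeR) and -0.98 with Lip-1 (adjusted p = 5.0e-04, edgeR). The Fer-1 call was lost without the second MI library, at 0.48 (adjusted p = 0.0867, edgeR), and without the third MI, the second Fer-1+MI or the third Fer-1+MI library. It was also lost with FPKM at a pseudocount of 0.1 (0.59, adjusted p = 0.0515, limma) and with unfiltered FPKM (0.59, adjusted p = 0.0796, limma). The Lip-1 call held in all 21 alternatives. Lip-1+MI against Fer-1+MI gave -1.55 ± 0.14 (SE, adjusted p = 6.4e-06, edgeR).

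Per1 is itself on the list of 10 genes named glucocorticoid-induced, which also holds Nr3c1, the gene of the receptor itself. Of the 10 on this list, 5 fell and 3 rose in MI against Sham. Of all tested genes 20.8% were called lower and 22.8% higher there. The median log2 fold change of the list was -0.26, against -0.00 over all genes. Besides Per1, those that fell were Zbtb16 (13.1 ± 0.482 to 5.14 ± 1.65 CPM), Tsc22d3 (32.7 ± 1.45 to 17.0 ± 1.98 CPM), Fkbp5 (86.6 ± 3.24 to 55.0 ± 5.43 CPM) and Klf9 (log2 fold change -0.44). Errfi1, Cebpd and Sgk1 rose, by 0.83, 0.56 and 0.34 on the log2 scale. The receptor gene Nr3c1 had a log2 fold change of -0.02 (adjusted p = 0.796, edgeR). Of 8 tested genes induced by cAMP through CREB, 4 rose and 0 fell, among them Sik1 (27.9 ± 1.40 to 90.4 ± 8.22 CPM) and Nr4a1 (13.2 ± 1.16 to 37.7 ± 8.96 CPM). Fos (17.9, 16.2 and 16.7 CPM in Sham, but 26.0, 9.63 and 10.8 CPM in MI), Crem, Nr4a2 and Egr1 did not pass. That is 4 of 8 where 43.6% of all tested genes were called, and 3 of 8 with library size or FPKM, where Pde4d (0.26 with TMM) did not pass.

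Markers of several other cell types moved with ligation beside the clock genes. Rises and falls are edgeR calls with TMM, where 22.8% of all tested genes were higher and 20.8% lower in MI against Sham. The sums are of FPKM, where the median of all tested genes shifted by -0.15 on the log2 scale in that comparison. All 5 smooth muscle and pericyte markers rose, and their summed level went from 1205 to 1304 FPKM in Sham to 1940 to 2118 FPKM in MI, 1492 to 1505 with Fer-1 and 1724 to 1967 with Lip-1. All 4 epicardial markers rose, from a sum of 29.5 to 32.1 FPKM to 40.4 to 46.2 FPKM in MI. The 4 endothelial markers measured summed to 33.2 to 33.6 FPKM in Sham and 24.4 to 28.1 FPKM in MI, and 1 of them fell. Of the 5 macrophage and leukocyte markers 4 rose, with sums of 126 to 138 FPKM in Sham and 131 to 149 FPKM in MI. Of the 6 fibroblast markers 3 rose and 2 fell, with sums of 3108 to 3235 FPKM in Sham, 3539 to 3972 in MI, 3345 to 3684 with Fer-1 and 3255 to 3325 with Lip-1. Of the 4 erythroid markers 3 fell and 0 rose, with sums of 31.1 to 38.2 FPKM in Sham, 17.3 to 23.0 in MI, 17.8 to 26.8 with Fer-1 and 17.2 to 20.1 with Lip-1. Neutrophil markers summed to 1.41 to 2.34 FPKM in Sham and 1.78 to 3.38 FPKM in MI, which overlapped, and neither of the 2 tested passed. The part of these markers in the clock gene differences was not tested, and in bulk tissue fewer cells of a type and less RNA per cell cannot be told apart.

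The within-group SD of log2 CPM was 0.19 for Per1 and for Per3, the largest of the 10, and 0.07 for Clock, the smallest, with a median of 0.13 over all tested genes. Per1 and Per3 stood at percentiles 63.8 and 63.9 of all tested genes in this SD, and Clock at 15.2. After group means were removed, 8 of the 45 pairs of clock genes had a Pearson correlation over 0.5 in size across the 12 libraries, given as a description. Per1 went with Cry1 (0.82) and against Per3 (-0.69) and Dbp (-0.64). Arntl and Nr1d1, which both rose with ligation, had -0.09 within groups.

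The genes whose log2 CPM followed a clock gene most closely over all 12 libraries were listed by Pearson correlation among genes of at least 1 CPM, and these libraries share the difference between Sham and ligation. For Arntl these were Ppp2ca (0.979), AABR07044711.1 (0.975) and Ets2 (0.970). For Per1 they were Tcf21 (0.975), Rnft2 (0.969) and Aars (0.964), and for Nr1d1 they were Snu13 (0.964), Nid2 (0.962) and Vars1 (0.959). Tcf21 is also 1 of the 6 fibroblast markers, of which 3 rose and 2 fell in MI against Sham. Tcf21 went from 46.6 ± 2.63 CPM in Sham to 33.9 ± 1.77 CPM in MI (SD, n = 3), while Col1a1 went from 10023 to 15681 CPM. Of the members that did not pass, Dbp was followed by Atp9a (0.945), Per3 by Inpp5f (0.905) and Clock by Ptpn5 (0.835). No clock gene was among the 3 nearest of another clock gene.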

How the data were processed

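Per the submitters' processing notes, the tools used on the reads included StringTie 2.1.6, HISAT2 2.2.1, edgeR, DESeq2, FastQC and cutadapt 1.9. Their order, the genome build and the strand setting of the counting are not stated there. Libraries were poly(A)-selected, stranded and read as pairs of 150 bases from RNA with an integrity number over 7, per the labels' protocols. The authors deposited whole-number counts for 32623 genes, not normalised, and FPKM values (per gene length and depth) for 23660 genes.

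Counts were filtered with filterByExpr (minimum count 10, minimum total 15), which kept 16910 genes, scaled with TMM and fitted in edgeR 4.0.16 under R 4.3.3 by robust quasi-likelihood, with all 12 libraries in 1 fit and group as the only term. P-values were adjusted over all tested genes in each of 6 comparisons, and intervals are 95% intervals of the fit. The step was tested on simulated counts. DESeq2 1.42.0 and limma 3.58.1 on log2(FPKM + 0.1) served as alternatives. Replicates of a group differed beyond counting noise, so none was merged. Deviations from group means of same-numbered libraries correlated over 0.1 in 6 of 18 pairs. All 3 pairs did so for MI and Lip-1+MI (0.15 to 0.17), where the replicate block left the clock calls as they were. The others were among MI and Fer-1+MI (0.20, 0.11 and 0.08) and Fer-1+MI and Lip-1+MI (0.15, 0.04 and 0.06). In both of those comparisons the block added Per1. The fit reported has no block. Genes named are the 10 members, fixed lists of loop, regulator, output and input genes, and the 3 genes nearest each member. Pecam1, Tcap and Sirt1 were not matched by symbol and are not analysed here. A further gene of the loop list is not reported here. The members and lists were chosen with earlier results of these data known. Motifs were searched as exact letters on both strands.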

Additional observations from a re-analysis of the deposited data

How the results depend on the processing

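The calls of Arntl, Nr1d1 and Per1 in MI against Sham, and of Nr1d1 in Lip-1+MI against MI, held in all 21 alternatives. With FPKM, MI against Sham gave 2405 higher and 5686 lower genes, in place of 3860 and 3509, and library size gave 1980 and 5325 with Fer-1, 1994 and 5909 with Lip-1 (each against Sham), and 234 and 297 in place of 295 and 238 for Lip-1+MI against Fer-1+MI. In those scalings Per2 and Dbp passed as lower in Lip-1+MI against Sham (Dbp -0.31 with library size), and 5 clock genes passed over the 4 groups with library size. The replicate block added 1 clock gene in Fer-1+MI against MI and 1 in Lip-1+MI against Fer-1+MI, in both Per1, at -0.34 (adjusted p = 0.00503, edgeR) and 0.32 (adjusted p = 0.0103, edgeR). Called genes in Fer-1+MI against MI numbered 907, but 558 with unfiltered FPKM and 550 with only the groups compared; in Lip-1+MI against MI 1031, but 601 with unfiltered FPKM; in Lip-1+MI against Fer-1+MI 533, but 328, 336 and 259 with FPKM at pseudocounts 0.1 and 1 and unfiltered. Leaving out 1 library gave 569 to 1071, 661 to 1134 and 304 to 552 genes, and 0 to 1 clock gene in the first and last of these. Signs turned for Csnk2a1 in MI against Sham (-0.13 with library size, -0.12, -0.11 and -0.12 with FPKM), Gsk3b (-0.00), and with library size against Sham for Skp1 in Fer-1+MI (-0.12), Nono (-0.10) and Nr3c1 (-0.01) in Lip-1+MI. The cause was not tested. With 3 libraries a group, the intervals of the uncalled clock genes in MI against Sham reach up to 0.29 (Nr1d2) and down to -0.30 (Per3).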
